A study of Homo sapiens with 8 samples.

Results

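CRISPR-DREAM and the SAM system were compared by RNA-seq in HEK293T, a widely used cell line of human embryonic kidney origin, with 2 libraries each. These 4 libraries of the 8 in the series were taken by their labels. In both systems a transcriptional effector is carried to the gene by a gRNA with MS2 stem-loops, which bind the MS2 coat protein (MCP). DREAM cells received dCas9 and MCP-MSN, in which MSN joins transactivation domains of human transcription factors, MRTF-A and NRF2 among them. SAM cells received dCas9-VP64 and MCP-p65-HSF1, which join a viral domain to dCas9 and domains of p65 and HSF1 to MCP. The other groups, with 2 libraries each, were the control, dCas9 with MCP-mCherry, and dCas9-VPR, in which the effector is fused to dCas9 and no MS2 loops are labelled. All cells were transfected transiently by lipofection, with 125 ng of pooled gRNA plasmids against *HBG1* and *HBG2*, and RNA was taken at 72 h. The plasmid amounts were 187.5 ng for each of the dCas9 and MCP plasmids and 375 ng for dCas9-VPR, so that the 2 MS2 systems and the control had matched amounts. Nothing in the sources used here says whether the 2 libraries of a group came from separate cultures, so p-values measure the spread between these libraries.

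HBG1 and HBG2 encode the gamma-globin chains of fetal haemoglobin. They lie beside each other on chromosome 11, have nearly the same sequence, and are silent in most adult cells. A transactivation domain binds coactivators, among them Mediator and the acetyltransferases p300 and CBP, which help to start transcription. MRTF-A is the coactivator of serum response factor (SRF), NRF2, encoded by *NFE2L2*, drives antioxidant genes, p65, encoded by *RELA*, is an NF-kB subunit, and HSF1 drives the heat shock genes. Both systems thus bring parts of signalling transcription factors into the cell, and the same libraries show the targeted genes, the genes of the parts themselves and the remainder of the transcriptome.

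Depth was similar. It was estimated at 31.5 and 28.4 M reads for DREAM and at 34.9 and 35.1 M reads for SAM. Levels are in CPM, reads of a gene scaled to the total of its library, and at least 1 CPM was reached by 14465 and 14475 genes with DREAM and by 14861 and 14857 with SAM, against 14226 and 14250 in the control. Between replicates, the SD of the log2 difference over 9799 genes was 0.172 for DREAM and 0.143 for SAM, where sampling of reads would give 0.0585 and 0.0525 at the median gene. Of the HEK293 marker list, 14 of 14 genes in the files were tested, whereas the erythroid list had 6 of 11 genes tested.

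The targeted genes were higher with DREAM. *HBG2* (chr11:5253188-5505606, minus strand, protein coding, in hg38 as the files give it) was at 2187 and 2874 CPM with DREAM, at 707 and 860 CPM with SAM, and at 218 and 201 CPM with dCas9-VPR. The control libraries held 1.29 and 0.838 CPM. Both DREAM libraries were above both SAM libraries, and all 4 were far above the control. In bulk libraries, more responding cells and more RNA per cell cannot be told apart. The log2 difference between DREAM and SAM was 1.69 (standard error 0.17, 95% interval 1.28 to 2.09, n = 2 each, limma adjusted p = 0.00449), a fold of 3.22. With 2 against 2 libraries an exact permutation test cannot go below p = 0.333, so the calls rest on the limma fit, which shares the spread over genes and groups. The adjusted p of *HBG2* was 0.00588 without SAM replicate 2 and 0.0277 without DREAM replicate 2.

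*HBG1* (chr11:5248269-5249858) was at 7.42 and 12.7 CPM with DREAM and at 2.56 and 3.33 CPM with SAM, and it was listed at 0 in both control libraries. It was 2.99-fold higher with DREAM (log2 difference 1.58, standard error 0.24, limma adjusted p = 0.00746), a call lost without SAM replicate 2 (limma adjusted p = 0.0836). A further gene model, *AC104389.6* (chr11:5248270-5254784), overlaps *HBG1* and *HBG2*. It was at 1782 and 2236 CPM with DREAM and at 533 and 665 CPM with SAM (log2 difference 1.74, standard error 0.18, limma adjusted p = 0.00454). How reads of these near-identical and overlapping models were divided is uncertain, so their sums are the firmer values. *HBG1* and *HBG2* together came to 2541 ± 489 CPM with DREAM and 786 ± 109 CPM with SAM (SD, n = 2), a ratio of 3.23 (limma adjusted p = 0.00441). The 3 models together came to 4550 ± 810 CPM and 1385 ± 202 CPM, a ratio of 3.29 (SD, n = 2). *AC104389.6* took 44.2% ± 0.82 of that sum with DREAM and 43.2% ± 0.44 with SAM (SD, n = 2), so the split between models was close while the level differed more than 3-fold.

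Neighbours in the cluster were low in both systems. *AC104389.5* (chr11:5254392-5678435), a model that overlaps *HBG2*, was at 4.99 and 5.18 CPM with DREAM and at 1.97 and 2.26 CPM with SAM (limma adjusted p = 0.00849). *HBBP1*, a beta-globin pseudogene, was at 1.01 and 1.83 CPM with DREAM and at 0.372 and 0.597 CPM with SAM and was listed at 0 in the control (limma adjusted p = 0.0385, CPM scale). This pseudogene reached 1 CPM in the 2 DREAM libraries alone and was tested for that reason. Under median-of-ratios scaling it fell below the filter. The embryonic globin gene *HBE1* was at 1.14 and 1.79 CPM with DREAM and at 0.4003 and 0.881 CPM with SAM, with the control at 0.766 and 1.20 CPM, and the difference between the systems did not pass the test (limma adjusted p = 0.0752). Of the TRIM family genes near the locus, *TRIM5* and *TRIM22* did not pass the test (log2 differences -0.20 and -0.86), and *TRIM6* was at 8.82 and 9.12 CPM with DREAM and at 12.7 and 12.2 CPM with SAM (limma adjusted p = 0.0241 in CPM, a call that ended at 0.0653 under median-of-ratios scaling).

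**Figure D1:**
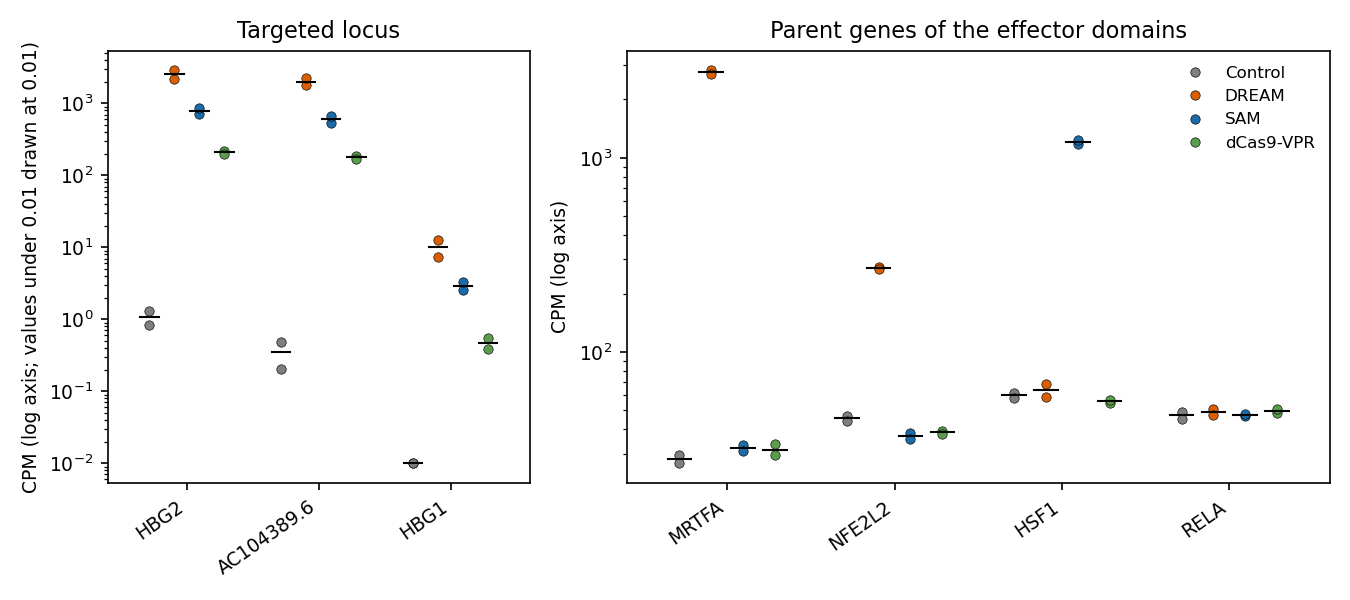
CPM on a log axis of the targeted gene models (left) and of human genes whose domains are in the effectors (right). Points are libraries, 2 per group, and lines are group means. *HBG2* lies at 2187 and 2874 CPM with DREAM against 707 and 860 CPM with SAM, and each effector gene that stands out does so in 1 system.

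Among the genes whose domains make up the effectors, each system stood out for its own, apart from *RELA*. *MRTFA* was at 2819 and 2691 CPM with DREAM and at 33.1 and 31.0 CPM with SAM, an 84.6-fold difference (log2 6.40, standard error 0.08, limma adjusted p = 5.45e-12). *NFE2L2* was at 275 and 268 CPM with DREAM and at 38.4 and 35.7 CPM with SAM, 7.24-fold (limma adjusted p = 1.36e-09). The 2 genes thus differed by unequal folds although their domains sit in 1 fusion. *HSF1* was at 1173 and 1230 CPM with SAM and at 68.8 and 58.5 CPM with DREAM, 18.8-fold higher with SAM (log2 difference -4.23, standard error 0.07, limma adjusted p = 1.8e-10). *RELA* was at 47.1 and 48.1 CPM with SAM and at 51.2 and 47.4 CPM with DREAM (log2 difference 0.05, 95% interval -0.11 to 0.21, limma adjusted p = 0.676), although p65 is in the SAM effector. Reads of the transfected fusions and of the endogenous genes are not separated in these values.

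Relative to the control, *NFE2L2* differed in the system that does not carry it. With SAM, *NFE2L2* was lower than in the control, where it was at 47.0 and 44.02 CPM (log2 difference -0.29, limma adjusted p = 0.00447), and with dCas9-VPR it was at 39.4 and 38.0 CPM. For *MRTFA* with SAM and *HSF1* with DREAM the differences from the control were 0.19 and 0.08 on the log2 scale (limma adjusted p = 0.0683 and 0.43), with 29.6 and 26.7 CPM and 61.6 and 58.0 CPM in the control.

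At the threshold of the study, which asks for more than 2-fold and for a false discovery rate under 0.05, 109 of 15122 genes tested (0.721%) differed between DREAM and SAM. Of these, 18 (0.119%) were higher with DREAM and 91 (0.602%) with SAM. Median-of-ratios scaling, which sets the median gene of each library equal, gave 85 of 15093 genes (0.563%), 25 higher with DREAM (0.166%) and 60 with SAM (0.398%), and moved the median log2 difference of all genes from -0.09 to 0.01. Both scalings shared 78 of these genes, 18 higher with DREAM and 60 with SAM. Without the fold threshold, 1623 genes (10.7%) passed in CPM, 241 (1.59%) higher with DREAM and 1382 (9.14%) with SAM. Under median-of-ratios scaling 1340 (8.88%) passed, 803 (5.32%) and 537 (3.56%) higher with DREAM and with SAM. The share of calls higher with DREAM thus went from 14.8% to 59.9% with the scaling, and from 16.5% to 29.4% past the fold threshold. In all, 777 genes (5.14%) passed the false discovery rate under both scalings in the same direction, 240 (1.59%) higher with DREAM and 537 (3.55%) higher with SAM.

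These calls rest on few libraries. Without SAM replicate 2, 9 genes were past the threshold and 13 passed the false discovery rate alone, against 109 and 1623 with all libraries. Without SAM replicate 1 there were 78 and 365, without DREAM replicate 1 134 and 2454, and without DREAM replicate 2 117 and 532. Most genes past the threshold without SAM replicate 2 were target models or effector genes. Genes that reached 1 CPM in the SAM libraries alone could not be tested once a SAM library was left out. The balance between the directions can therefore not be read from that set. Among the 13 genes were *MRTFA*, *NFE2L2*, *HBG2*, *AC104389.6* and *S100A1*, higher with DREAM, and *HSF1*, *CARD8-AS1*, *AL357075.3*, *RNF182*, *ZBTB2*, *YPEL5* and *EIF5*, higher with SAM. At an unadjusted p below 0.05 there were 2744 genes. At a false discovery rate of 0.1 and a fold change above 2, the set without SAM replicate 2 held 39 genes, 22 higher with SAM.

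**Figure D2:**
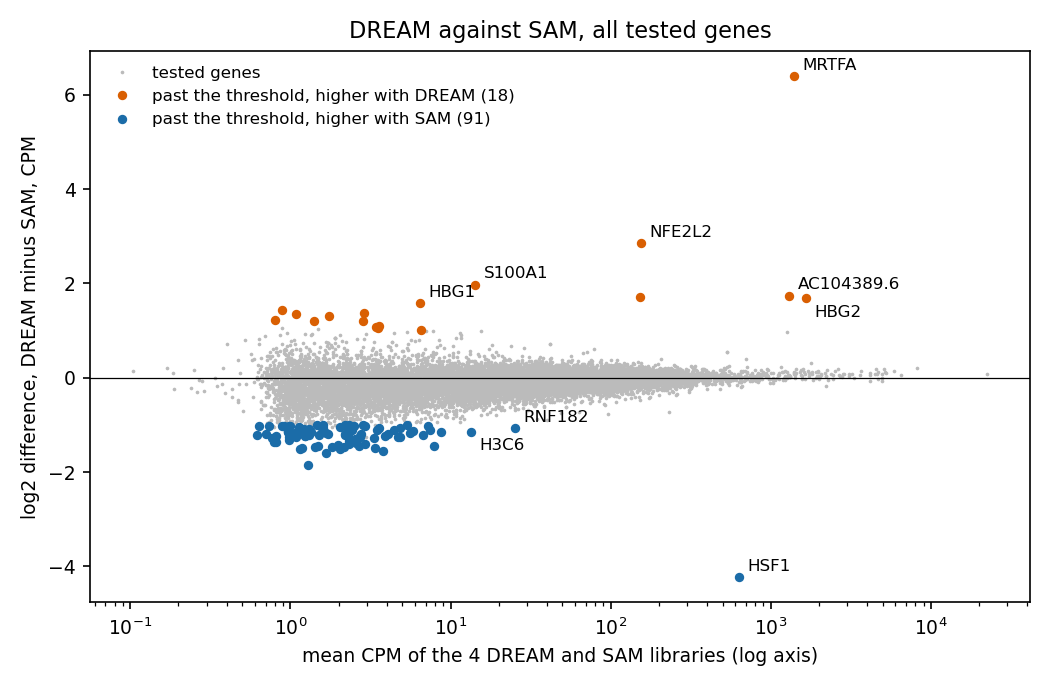
Log2 difference between DREAM and SAM (vertical axis) against the mean CPM of the 4 libraries (horizontal log axis) for all genes tested. Coloured points are past the threshold, 18 higher with DREAM and 91 higher with SAM, and apart from target and effector genes most of them lie at low CPM.

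The genes differed in level by direction. Of the 91 genes higher with SAM, 69 had a mean below 3 CPM and 3 reached 10 CPM, with a median of 1.81 CPM. They comprised 61 protein-coding genes, 26 lncRNAs and 4 of other types, and apart from *HSF1* their median fold was 2.27. Of the 18 genes higher with DREAM, 17 were protein coding and 6 reached 10 CPM. The 12 genes other than *HBG1*, *HBG2*, *AC104389.6* and the effector genes had a median fold of 2.31. They include *AC104389.5*, the model that overlaps *HBG2*. At the false discovery rate alone, under both scalings, genes at 100 CPM or more leaned the other way, with 62 of 1982 higher with DREAM and 24 higher with SAM. Between 10 and 100 CPM, 131 and 252 of 7904 were called, and below 3 CPM, 14 and 130 of 2632. Many of the low genes passed the filter of 1 CPM in 2 libraries only because 1 group was high. Of the 91 genes higher with SAM, 42 had fewer than 2 libraries at 1 CPM outside the SAM group, as had 4 of the 18 genes higher with DREAM outside the DREAM group. Such genes were tested because they differed, so their number is not read as a result.

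Both systems were then set beside the same control libraries. Of the 91 genes higher with SAM, SAM was past the threshold above the control for 62 and below it for 0, and DREAM was above it for 3 and below it for 2. Those genes were picked as high in these same SAM libraries, and 42 of them passed the filter only through SAM. The 62 against 0 therefore follows in part from that choice and is not comparable with the shares over all genes. Over all genes tested, 588 (3.89%) were above and 69 (0.456%) below the control with SAM, and 309 (2.04%) and 76 (0.503%) with DREAM. Comparisons with the control, here and elsewhere, were fitted in CPM only, where the typical gene already lay above the control. In 5 groups of genes by transcript GC content, the median log2 difference from the control was 0.143 to 0.18 with SAM and 0.013 to 0.152 with DREAM. Counts against the control under median-of-ratios scaling were not made. Of the 18 genes higher with DREAM, 15 were above the control with DREAM and 6 with SAM, where the 15 likewise follow in part from how the genes were picked.

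Apart from target and effector genes, *S100A1*, a calcium-binding protein gene of muscle and nerve, had the largest difference in favour of DREAM. It was at 19.2 and 26.9 CPM with DREAM, at 4.79 and 6.11 CPM with SAM, and at 10.7 and 11.1 CPM with dCas9-VPR, against 1.12 and 1.18 CPM in the control. All 3 activators were above the control and DREAM was highest, 3.93-fold above SAM (limma adjusted p = 0.000598), a call kept without any 1 of the 4 libraries. *S100A16*, its neighbour on chromosome 1 (chr1:153606886-153613146, with *S100A1* at chr1:153627926-153632040), was at 19.6 and 21.7 CPM with DREAM, at 9.86 and 10.5 CPM with SAM, against 0.351 and 0.652 CPM in the control. Its log2 difference between DREAM and SAM was 0.98 (limma adjusted p = 0.00778; 0.0867 without SAM replicate 2). It was among the S100 list, of which 2 of 9 genes tested were higher with DREAM under both scalings and 0 with SAM.

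*EDAR*, the ectodysplasin receptor, was at 1.27 and 1.79 CPM with DREAM and at 0.143 and 0.370 CPM with SAM, with 0.0320 and 0.0327 CPM in the control, below the value of 3 reads. *FTCD*, a liver enzyme of histidine breakdown, was at 3.61 and 5.23 CPM with DREAM and at 1.20 and 1.54 CPM with SAM, and *F10*, which encodes coagulation factor X, at 2.02 and 2.28 CPM and at 0.686 and 0.626 CPM. Both were also above their control levels, 0.415 and 0.554 CPM for *FTCD* and 0.128 and 0.196 CPM for *F10*, in both systems.

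*NHLH1*, a neuronal helix-loop-helix factor, was at 2.37 and 2.98 CPM with DREAM and at 0.658 and 0.910 CPM with SAM, where the control had 0.925 and 0.587 CPM. *CLDN6*, a tight junction gene, was at 4.71 and 4.95 CPM with DREAM and at 1.69 and 2.45 CPM with SAM, around a control of 2.27 and 3.78 CPM. For these genes SAM did not pass the test against the control (limma adjusted p = 0.902 and 0.118). *CHKB-CPT1B*, a read-through model, went the other way: it was at 2.85 and 3.34 CPM in the control, at 0.992 and 1.65 CPM with DREAM and at 0.146 and 0.418 CPM with SAM. The remaining genes of the leading 10 were *AC010653.2*, *AC023055.1* and *AC104389.5*, the last being the model that overlaps *HBG2*. Of these 10 genes, the call was lost for 9 without SAM replicate 2 (limma adjusted p up to 0.211) and for 7 without SAM replicate 1 (up to 0.129), *S100A1* being kept in both. *EDAR*, *F10*, *NHLH1* and *AC010653.2* reached 1 CPM in the 2 DREAM libraries alone and were tested for that reason.

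Of the 10 largest differences in favour of SAM, 6 were of genes that reached 1 CPM in the 2 SAM libraries alone and were tested for that reason, namely *MYCBP2-AS1*, *IRAK3*, *PALMD*, *ARHGEF15*, *AC007448.5* and *AL158801.2*. *SKAP1* reached 1 CPM outside SAM only in DREAM replicate 2 (1.02 CPM), so it too passed the filter only through the SAM libraries. *MYCBP2-AS1*, an antisense lncRNA, was at 2.43 and 2.17 CPM with SAM and at 0.186 and 0.381 CPM with DREAM, 3.61-fold (limma adjusted p = 0.00245). *IRAK3*, an inhibitor of Toll-like receptor signalling, was at 2.43 and 3.10 CPM with SAM and at 0.566 and 0.597 CPM with DREAM, 3.003-fold. *CARD8-AS1* was at 5.60 and 6.11 CPM with SAM and at 1.61 and 1.72 CPM with DREAM, 2.93-fold (limma adjusted p = 0.00101). For *CARD8-AS1* the control and dCas9-VPR were also below both SAM libraries, at 1.52 and 1.53 CPM and at 1.72 and 1.67 CPM. For *MYCBP2-AS1* and *IRAK3* the same order follows from the filter, since only the SAM libraries reached 1 CPM.

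*PALMD*, which encodes palmdelphin, was at 1.57 and 2.33 CPM with SAM and at 0.316 and 0.386 CPM with DREAM. *ARHGEF15*, a guanine nucleotide exchange factor of endothelial cells, was at 1.94 and 2.02 CPM with SAM and at 0.348 and 0.421 CPM with DREAM, where the control held 0.0639 and 0.0327 CPM. *GALR2*, a galanin receptor, was at 2.89 and 3.92 CPM with SAM, at 0.759 and 1.05 CPM with DREAM and at 1.24 CPM in both control libraries. The adaptor *SKAP1* and the gene *CCDC160* differed by 2.78-fold and 2.81-fold, and the lncRNAs *AC007448.5* and *AL158801.2* by 2.85-fold and 2.75-fold. The 4 libraries did not overlap for any of these, as the rule for naming them required. Without SAM replicate 2, *CCDC160*, *SKAP1* and *GALR2* lost the call (limma adjusted p up to 0.136), *CARD8-AS1* kept it (0.0278), and the other 6 were below the filter of 1 CPM in 2 libraries.

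To show what stands before the genes that differed without being targeted, 5 promoters are printed for the leading genes, 3 higher with DREAM and 2 higher with SAM. Each is the 250 bases before the RefSeq start in GRCh38.p14, at chr1:153628184-153628433 (plus strand) for *S100A1*, chr21:46155580-46155829 (minus) for *FTCD*, chr13:113122549-113122798 (plus) for *F10*, chr12:66188964-66189213 (plus) for *IRAK3* and chr19:48255425-48255674 (plus) for *CARD8-AS1*. Capitals mark matches, on either strand, to GAS (TTCNNNGAA, an interferon-responsive element), ARE (TGACNNNGC, the NRF2 element), HSE (the HSF1 element, 3 alternating GAA units), AP-1 (TGANTCA), CRE (TGACGTCA), CCAAT, and the CArG and NF-kB motifs.
S100A1: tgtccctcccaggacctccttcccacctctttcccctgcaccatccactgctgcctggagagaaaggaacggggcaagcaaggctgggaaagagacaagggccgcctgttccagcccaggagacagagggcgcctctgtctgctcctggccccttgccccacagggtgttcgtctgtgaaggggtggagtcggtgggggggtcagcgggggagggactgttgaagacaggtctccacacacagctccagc
FTCD: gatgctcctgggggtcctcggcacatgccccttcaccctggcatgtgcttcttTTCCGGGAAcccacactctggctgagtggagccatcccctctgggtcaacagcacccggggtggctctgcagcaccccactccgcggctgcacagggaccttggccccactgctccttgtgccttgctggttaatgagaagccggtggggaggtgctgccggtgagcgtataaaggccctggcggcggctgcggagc
F10: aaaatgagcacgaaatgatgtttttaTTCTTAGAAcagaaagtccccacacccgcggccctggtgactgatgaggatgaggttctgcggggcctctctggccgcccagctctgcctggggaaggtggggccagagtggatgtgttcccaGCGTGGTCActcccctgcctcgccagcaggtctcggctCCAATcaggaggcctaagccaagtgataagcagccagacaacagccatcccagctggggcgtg
IRAK3: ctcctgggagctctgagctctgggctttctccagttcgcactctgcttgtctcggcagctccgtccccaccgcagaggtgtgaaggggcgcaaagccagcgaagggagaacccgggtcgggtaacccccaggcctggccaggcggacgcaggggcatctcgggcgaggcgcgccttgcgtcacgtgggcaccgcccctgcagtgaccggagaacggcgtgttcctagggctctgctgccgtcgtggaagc
CARD8-AS1: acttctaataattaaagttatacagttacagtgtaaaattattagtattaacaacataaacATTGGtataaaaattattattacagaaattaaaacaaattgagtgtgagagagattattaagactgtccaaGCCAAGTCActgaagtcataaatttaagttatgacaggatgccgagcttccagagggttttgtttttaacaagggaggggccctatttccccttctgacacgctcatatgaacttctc

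*FTCD* and *F10* hold a GAS match, *F10* and *CARD8-AS1* an ARE match and a CCAAT box, and *S100A1* and *IRAK3* none of the 8 motifs in this window. The window of *S100A1* lies inside its gene model as the files give it, which starts at chr1:153627926. The sequence before that start was not scanned. Over larger sets the shares were set beside those of all promoters of tested genes (16166 promoters of 10984 genes), with no test. The GAS share was 3.97% of 277 promoters of genes higher with DREAM and 6.02% of 631 of genes higher with SAM, under both scalings, against 5.25% of all. The ARE share was 14.1% and 10.1% against 11.7%, the HSE share 0% and 0.158% against 0.315%, the CArG share 1.44% and 0.634% against 1.05%, the NF-kB share 15.2% and 11.7% against 12.1%, and the CCAAT share 33.9% and 31.9% against 32.9%. Among genes past the fold threshold the CCAAT share was 36.4% of 11 promoters of genes higher with DREAM and 47.1% of 87 of genes higher with SAM. The mean GC content of the promoters was 66.4% for genes higher with DREAM, 58.6% for genes higher with SAM and 63.4% for all. Past the fold threshold it was 63.2% and 52.1%, so that genes higher with DREAM were then at the level of all genes.

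**Figure D3:**
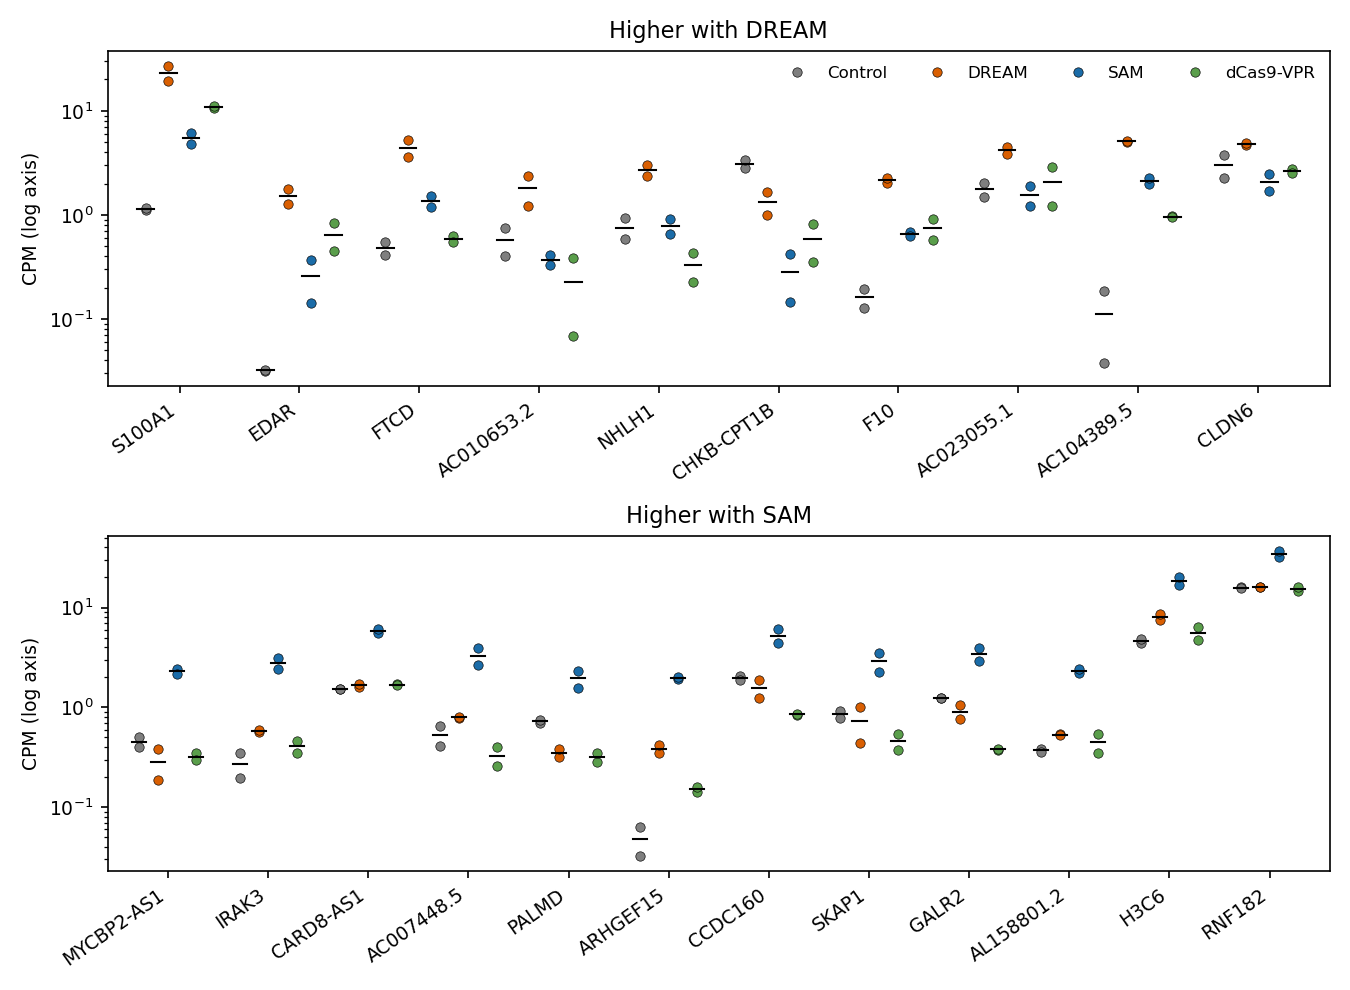
CPM on a log axis, by library, of the 10 genes with the largest difference in each direction, with *H3C6* and *RNF182* added among genes higher with SAM. Points are libraries and lines are means of 2. With SAM the blue points stand above the other 3 groups in the lower panel, and *S100A1* in the upper panel is above the control in all 3 systems.

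At 10 CPM or more, *RNF182*, a ubiquitin ligase gene, was at 32.0 and 36.7 CPM with SAM, at 16.2 and 16.01 CPM with DREAM and at 15.98 and 15.6 CPM in the control, 2.09-fold higher with SAM (limma adjusted p = 0.000671). Its log2 difference fell short of 1 under median-of-ratios scaling (-0.96), without SAM replicate 2 (-0.97) and with the trend of transcript GC content of each library removed, an alternative chosen after seeing the data (-0.88), each time below a false discovery rate of 0.05. *H3C6*, a replication-dependent histone gene, was at 16.8 and 20.3 CPM with SAM and at 7.56 and 8.67 CPM with DREAM, above a control of 4.43 and 4.86 CPM (limma adjusted p = 0.00449; 0.0845 without SAM replicate 2). With the GC trend removed its log2 difference was -0.99.

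Over the 9886 genes whose mean reached 10 CPM, 193 (1.95%) were higher with DREAM and 276 (2.79%) with SAM under both scalings, and 17 and 65 of them exceeded a fold of 1.5. Some of these are named here after their values were seen. With DREAM they included *HBEGF*, an EGF family ligand (13.8 and 16.7 CPM against 6.89 and 8.39), *SLC17A7*, the vesicular glutamate transporter (15.5 and 15.2 against 8.32 and 7.68), *NGFR*, the neurotrophin receptor (23.2 and 22.1 against 14.4 and 13.02), and *SMARCD3*, a BAF complex subunit (90.8 and 98.3 against 63.4 and 60.8). For *HBEGF* and *SMARCD3* SAM did not pass the test against the control, whereas for *SLC17A7* and *NGFR* both systems were above it. With SAM they included *EIF5*, a translation initiation factor (268 and 313 CPM against 176 and 175 with DREAM and 230 and 238 in the control), *ZBTB2* (40.7 and 49.5 against 24.8 and 23.7) and *YPEL5* (113 and 130 against 70.0 and 71.9). These 3 lay above the control with SAM and below it with DREAM, each past a false discovery rate of 0.05. Of all genes named in this paragraph, only these 3 kept the call between the systems without SAM replicate 2. Their log2 differences were then -0.61 for *EIF5*, -0.67 for *YPEL5* and -0.73 for *ZBTB2*. *GPM6A*, a neuronal membrane glycoprotein (45.4 and 58.9 CPM against 25.3 and 30.4), and *RAB29* (73.2 and 85.7 against 45.6 and 49.8) were above the control with SAM, and with DREAM the differences from the control did not pass (limma adjusted p = 0.428 and 0.369).

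Target genes of the transcription factors in the effectors were then counted. The background under both scalings was 1.59% of genes higher with DREAM and 3.55% higher with SAM. Of the HSF1 and chaperone genes, 4 of 32 tested were higher with SAM and 0 with DREAM. *HSPA6*, an inducible HSP70, was at 2.62 and 3.25 CPM with SAM and at 1.35 and 1.25 CPM with DREAM. *DNAJB4* was at 34.7 and 35.1 CPM against 23.4 and 23.8, *HSPH1* at 120 and 129 CPM against 99.1 and 91.8, and *DNAJA1* at 327 and 355 CPM against 279 and 271. The list median was -0.10 in CPM and 0.01 under median-of-ratios scaling, beside -0.09 and 0.01 over all genes, so the list as a whole sat at the median gene. All 4 calls were lost without SAM replicate 2 (limma adjusted p from 0.114 to 0.151). With the GC trend of each library removed, *HSPH1* and *DNAJA1* lost the call (limma adjusted p = 0.0653 and 0.172), their log2 differences going from -0.38 to -0.19 and from -0.31 to -0.13, and *DNAJB4* kept it at -0.36 against -0.55.

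Of the SRF and MRTF target genes, 2 of 28 were higher with DREAM and 1 with SAM, while *MRTFA* itself differed 84.6-fold. *CORO1A*, an actin-binding coronin, was at 9.84 and 11.9 CPM with DREAM and at 5.43 and 6.68 CPM with SAM, and *TAGLN2*, a transgelin, at 562 and 541 CPM against 491 and 459. *CCN2*, a matricellular growth factor, was higher with SAM, at 8.60 and 11.7 CPM against 5.31 and 5.79. Of the NRF2 target genes, 0 of 25 passed in either direction under both scalings. The iron store *FTH1* and the pentose phosphate enzyme *TKT*, the most abundant of them, had log2 differences of 0.04 (95% interval -0.18 to 0.25) and 0.12 (-0.01 to 0.25).

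Of the interferon-stimulated genes, 1 of 26 was higher with DREAM and 3 with SAM. *IFIT1*, an antiviral RNA-binding protein, was at 6.80 and 7.93 CPM with SAM, at 3.57 and 3.23 CPM with DREAM and at 4.66 and 5.35 CPM in the control. *IFI35* was at 12.7 and 13.9 CPM against 7.47 and 7.76, and *IFIT5* at 17.95 and 18.8 CPM against 13.5 and 11.6. *ISG20*, an exonuclease, was lower than the control (10.1 and 11.2 CPM) in both systems, at 3.89 and 4.11 CPM with DREAM and at 2.63 and 2.33 CPM with SAM. Of the NF-kB target genes, 1 of 22 was higher with DREAM and 0 with SAM, namely *NFKB2* at 29.7 and 30.0 CPM against 23.6 and 23.0. *IFIT5* lost the call with the GC trend removed (limma adjusted p = 0.0695, log2 difference -0.34 against -0.54). For the interferon, SRF and NF-kB lists every call was lost without SAM replicate 2 (limma adjusted p from 0.0845 to 0.21).

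Stress and early response genes were next. Of the p53 target genes, 3 of 26 were higher with SAM and 1 with DREAM. The death receptor *FAS* was at 9.94 and 9.33 CPM with SAM and at 5.18 and 5.20 CPM with DREAM, against 8.98 and 7.98 CPM in the control, and *TIGAR* and *TP53INP1* had log2 differences of -0.48 and -0.42. For all 3, DREAM was below the control and SAM did not pass the test against it. *TP53I3*, a quinone oxidoreductase, was at 16.9 and 18.2 CPM with DREAM, at 12.5 and 12.7 CPM with SAM and at 4.85 and 4.76 CPM in the control. Of the immediate early genes, 2 of 26 were higher with DREAM, *FOSB* at 6.07 CPM in both libraries against 3.23 and 4.72, and *FOS* at 5.31 and 6.74 CPM against 3.46 and 4.41 (limma adjusted p = 0.0448 and 0.049). Of the ATF4 and unfolded protein response genes, 0 of 30 passed under both scalings, and *ATF4* was at 972 and 970 CPM with DREAM and at 969 and 997 CPM with SAM, both below 1128 and 1199.8 CPM in the control. Each of these calls was lost without SAM replicate 2 (limma adjusted p from 0.0735 to 0.186). With the GC trend removed, *TIGAR*, *TP53INP1* and *FOSB* also lost it (limma adjusted p = 0.0885, 0.0739 and 0.0527), the first pair at log2 differences of -0.30 and -0.23.

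Growth and metabolism genes differed little. Of 79 cytosolic ribosomal protein genes 3 were higher with DREAM and 0 with SAM, *RPL19* being at 1948 and 2027 CPM with DREAM, at 1605 and 1585 CPM with SAM and at 2234 and 2209.9 CPM in the control. The list median was 0.06 in CPM and 0.17 under median-of-ratios scaling. Of 28 sterol and fatty acid synthesis genes 2 were higher with DREAM, among them the desaturase *FADS1* (184 and 183 CPM against 158 and 159). Of 29 glycolysis and hypoxia genes 2 were higher with DREAM, the aldolase *ALDOC* (27.5 and 31.2 CPM against 19.6 and 17.002) and the enolase *ENO2*, and 1 with SAM, *KDM3A*, a histone demethylase. One respiratory chain gene of 73, *ATP5MC2*, was higher with DREAM. Of 34 DNA replication and mitosis genes, 33 proteasome genes and 15 mitochondrially encoded genes, 0 passed under both scalings, with *MCM2*, *PSMB4* and *MT-CO1* at log2 differences of 0.06, 0.05 and -0.06.

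Of 44 Mediator and coactivator genes, the partners of transactivation domains, 4 were higher with SAM and 0 with DREAM. The Mediator kinase *CDK19* was at 33.6 and 34.5 CPM with SAM and at 26.4 and 20.02 CPM with DREAM, *EP300*, which encodes p300, at 35.7 and 32.2 CPM against 26.7 and 23.4, and *MED10* at 33.0 and 33.4 CPM against 25.4 and 25.1, with *KDM3A* the other member. The list median under median-of-ratios scaling was -0.03. With the GC trend removed, *EP300*, *MED10* and *KDM3A* lost the call (limma adjusted p = 0.0542, 0.0583 and 0.0825), and members of the list past the false discovery rate went from 7 in CPM to 1. With only the 4 DREAM and SAM libraries fitted there were 0, the 4 named being at limma adjusted p from 0.0521 to 0.0578. Over all genes tested the calls fell as well, from 1623 to 933 of 15122 with the trend removed and to 494 of 14859 with the 4 libraries. The drop is therefore not particular to this list. Of 13 replication-dependent histone genes tested, 2 were higher with SAM and 0 with DREAM, *H4C8* (3.32 and 5.71 CPM against 1.36 and 1.33) and *H3C6*, and the list median was -0.45 in CPM and -0.34 under median-of-ratios scaling. Transcripts of such histone genes lack a poly(A) tail in dividing cells, and the sources differ on the RNA used, a total RNA kit in the protocol and polyA RNA in the molecule field. Small structural noncoding RNAs, another such class, varied between replicates, with *RN7SL1* at 39.7 and 38.9 CPM with DREAM and at 49.4 and 22.0 CPM with SAM, and 0 of 10 passed. Every call on the metabolic, ribosomal, Mediator and histone lists was lost without SAM replicate 2 (limma adjusted p from 0.0845 to 0.275).

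Cell identity markers gave few calls. Of the kidney and neural markers of HEK293 cells, 0 of 14 passed under both scalings, with the summed level at 248 and 230 CPM with DREAM and at 286 and 262 CPM with SAM. The list median was -0.32 in CPM and -0.22 under median-of-ratios scaling, beside -0.09 and 0.01 over all genes. For 10 of the 14 both SAM libraries were above both DREAM libraries, and for 0 the reverse held. Such separation was common in other lists. It held for 16 of 32 chaperone genes with SAM and 2 with DREAM, and for 13 and 1 of 26 fetal globin regulators. Its share over all genes tested was not counted, so the 10 are not read as a result about these markers. In CPM, 2 of the 14 markers were higher with SAM past the false discovery rate. Of the fetal globin regulators, among them the repressor complex genes *RBBP4* and *HDAC1* (log2 differences 0.02 and 0.10), 0 of 26 passed under both scalings. Of 6 erythroid markers tested, 0 passed, and *TFRC* and *CA2* made up most of a summed level of 297 and 349 CPM with DREAM and 279 and 349 CPM with SAM. Markers of other cell types summed to 23.1 and 25.4 CPM with DREAM, 32.0 and 32.8 CPM with SAM and 19.3 and 19.0 CPM in the control, over 11 genes. Of the 8 tested 1 was higher with SAM, *LUM*, which encodes lumican, at 2.77 and 4.38 CPM against 0.664 and 1.47 (0.159 without SAM replicate 2, limma adjusted p). Of 18 Nodal and SMAD feedback genes and 29 matrix genes, 0 passed, with *ID4*, *TGIF2*, *LAMC1* and *NID1* between -0.24 and 0.08.

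**Figure D4:**
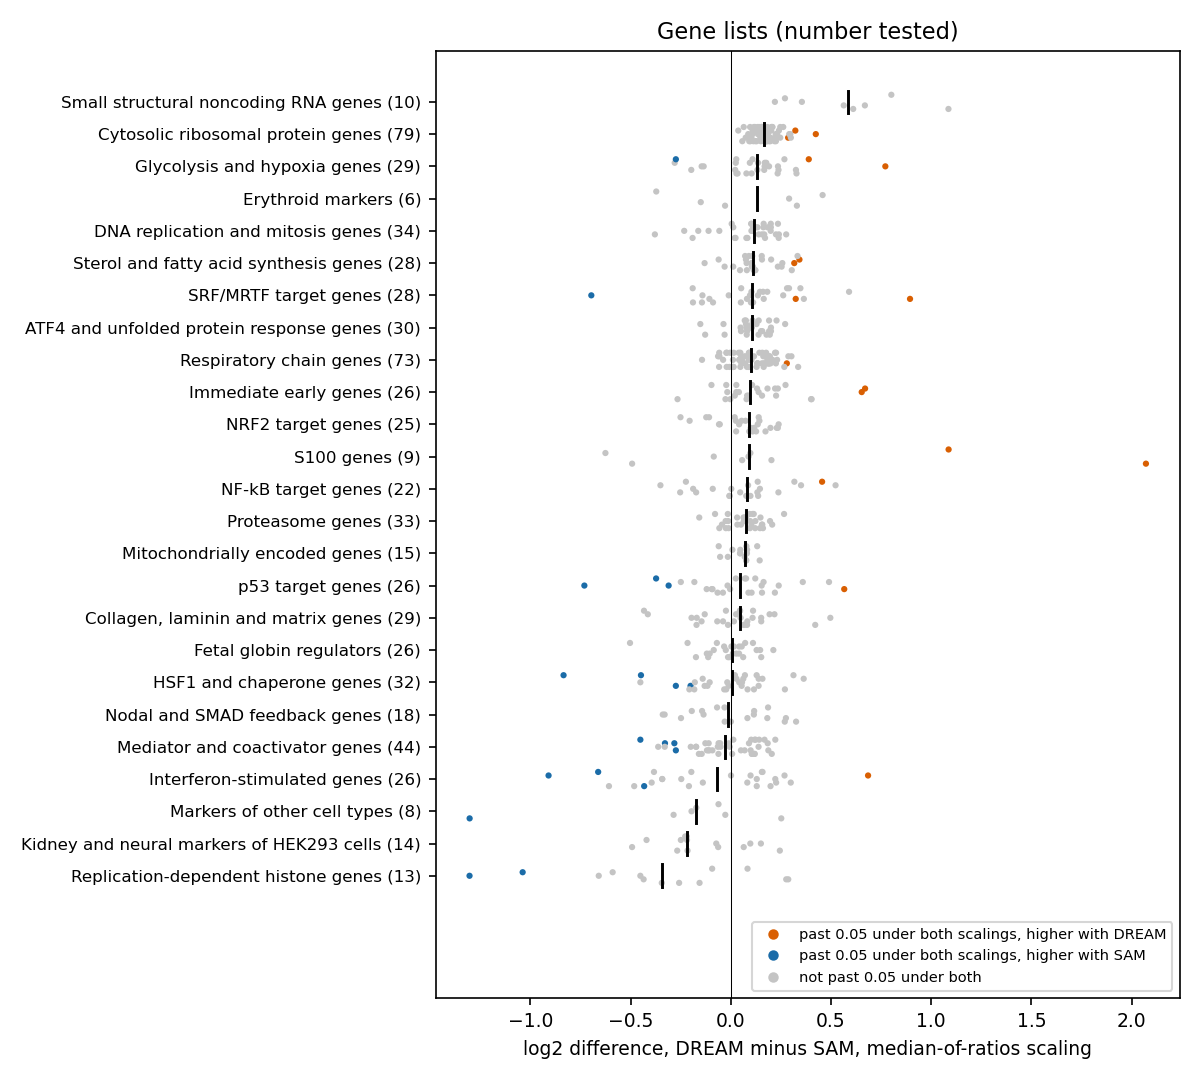
Log2 difference between DREAM and SAM under median-of-ratios scaling for each tested member of 25 gene lists. Points are genes, coloured where past a false discovery rate of 0.05 under both scalings, and bars are list medians. Most points are grey, and no list has more than 4 coloured members in 1 direction.

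Neighbouring genes past the threshold in the same direction, within 50 kb, were found at 2 places. One is the gamma-globin cluster with its 4 models. The other is on chromosome 6, where *IPCEF1* (chr6:154154496-154356793), *AL357075.4* and *AL357075.3* were higher with SAM, *AL357075.3* at 10.9 and 12.5 CPM against 3.796 and 4.11 with DREAM and 2.68 and 3.26 in the control. *IPCEF1* and *AL357075.4* overlap, so reads may be shared between them.

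Base composition also differed between the transcripts. The median GC content of the longest Gencode 44 transcript was 57.9% for genes higher with DREAM under both scalings (228 of 240 matched), 42.4% for genes higher with SAM (492 of 537) and 48.1% for all tested genes (14068 of 15122). With genes in 5 equal groups by transcript GC content, the median log2 difference between DREAM and SAM ran from -0.165 in the lowest group to 0.03 in the highest. Relative to the control it ran from 0.013 to 0.152 for DREAM, from 0.038 to 0.103 for dCas9-VPR and from 0.18 to 0.151 for SAM. Between the DREAM replicates the median difference ran from 0.099 to 0.002, and between the SAM replicates from 0.006 to 0.032. With the GC trend of each library removed, 23 genes were higher with DREAM and 63 with SAM past the threshold, of which 81 were called with and without the correction, 18 and 63 by direction. At the false discovery rate alone the counts were 519 and 414, against 241 and 1382 without the correction and 803 and 537 under median-of-ratios scaling. Of the 62 called genes picked by the naming rule, 12 lost the call with the trend removed. For 9 of these the false discovery rate was no longer passed (*HSPH1*, *DNAJA1*, *IFIT5*, *TIGAR*, *TP53INP1*, *FOSB*, *KDM3A*, *EP300* and *MED10*), and for *H3C6*, *RNF182* and *IFIT1* the fold alone fell short of 2. The log2 difference of *HBG2* was 1.79 with the trend removed.

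**Figure D5:**
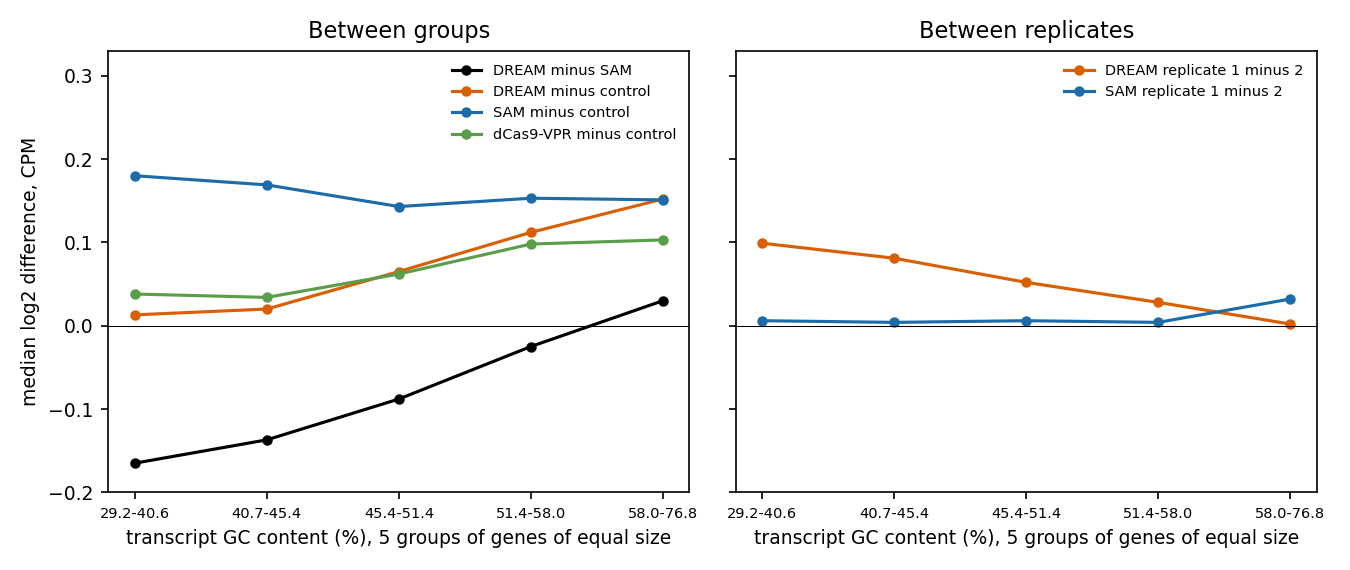
Median log2 difference in CPM for genes in 5 groups ordered by transcript GC content, 2812 to 2815 genes each, between groups (left) and between replicates of a group (right). The line of DREAM minus SAM climbs from -0.165 to 0.03, and the 2 DREAM libraries also differ from each other along GC content.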

How the data were processed

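RNA-seq was compared between the 2 DREAM and the 2 SAM libraries of HEK293T cells, grouped by the sample labels. The authors aligned reads with STAR 2.7.3a to hg38 with Gencode release 36, estimated transcript levels with a Bayesian method, deposited CPM values (0.0001 added to each) and tested with DESeq2 (version 3.5 in their notes). How the 19770 genes listed were selected is not given in the sources used here. Whole reads could not be recovered, since only 65.5% to 70.4% of values near the detection limit came out as whole reads within 0.05 read. A count test was therefore not run here. Depth, estimated from those steps, was 28.4 to 35.1 M reads per library, and 3 reads were worth 0.085 to 0.106 CPM, which covers counting error only.

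The limma package (3.58.1, R 4.3.3, trend and robust) was applied to log2(CPM + 0.5), with 1 coefficient per group, all 8 libraries and 4 residual degrees of freedom. A gene was tested where 2 or more libraries reached 1 CPM, and p-values were adjusted over those 15122 genes by Benjamini-Hochberg. All tests are two-sided, and fold changes on this scale understate those of low genes. The fit was tested on simulated data for DREAM against SAM (14582 genes), where it called 88.1% of 42 genes raised 2-fold, 96% of 50 lowered to 0.5-fold and 0.0487% of 14382 unchanged genes. Changes were simulated only in genes of at least 3 CPM in the control. All simulated libraries had the same depth, with no scaling shift and no GC trend. These rates therefore do not cover changes in genes below 3 CPM or such shifts between libraries. Median-of-ratios factors were 1.02 and 0.98 for DREAM and 1.08 and 1.07 for SAM. Sums of genes were fitted as 1 further row, and lists were counted without a set test. The genes named were the 3 gamma-globin models, effector parent genes, the 10 largest differences in each direction past the threshold with libraries that do not overlap, the same among genes of at least 10 CPM, and from each of 27 lists the 4 largest under both scalings, or else the 2 most abundant. These members, the gene lists and the rule were chosen with earlier results of these data known. Promoters were read from RefSeq tables, and transcript GC content from Gencode 44 on hg38, whose models may differ from release 36. Genes with no GC value were left uncorrected when the GC trend was removed. Alternatives were other scaling, pseudocounts of 0.1 and 1, other filters and thresholds, only the 4 libraries compared, a replicate block, removal of the GC trend and leaving out each library. *HBB* and *HBD* are not analysed here. Results on some further genes are not reported here. Tables were handled with Python 3.11.15 and pandas 2.3.3.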

Additional observations from a re-analysis of the deposited data

How the results depend on the processing

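The log2 difference of *HBG2* was 1.68 to 1.79 over the alternatives that leave out no replicate and 1.49 to 1.88 when 1 library was left out, with limma adjusted p of 0.002 to 0.0277 over all 12. *HBG1* and *HBG2* summed gave 1.68 to 1.79 and 1.49 to 1.88, and the sum could not be fitted with the GC trend removed. *HBG1* ranged from 1.21 to 1.95 without 1 library, was not past the threshold without SAM replicate 2 (1.74), and could not be fitted with a filter at 10 CPM. Counts of genes past the threshold, 109 in all, 18 higher with DREAM and 91 with SAM, depended on the settings. They were 188, 26 and 162 with a pseudocount of 0.1, 50, 11 and 39 with a pseudocount of 1, 11, 6 and 5 with at least 10 CPM in 2 libraries, 498, 56 and 442 at a fold change above 1.5, 1623, 241 and 1382 with no fold threshold, and 4, 3 and 1 when limma tested against a fold change of 2. Median-of-ratios scaling gave 60 higher with SAM. Leaving out 1 library gave 9 to 134 in all, 6 to 24 higher with DREAM and 3 to 110 with SAM. Leaving 1 library in a group assumes that it varies like the other groups. The replicate block, tried because groups share replicate numbers, gave 110, 19 and 91, and 4617 genes at the false discovery rate alone against 1623. Differences between replicates 1 and 2 correlated at 0.272 between DREAM and SAM and at 0.133 to 0.326 over the 6 pairs of groups. The labels name no shared day or batch, so with 2 numbers this is a hint from the data and not a pairing by design. Members of all lists past the false discovery rate, 64 in CPM, were 212 under the block (erythroid markers 4 against 0, fetal globin regulators 10 against 2, *CA2* and *HDAC1* at limma adjusted p of 0.0114 and 0.0303), 61 with the GC trend removed, 25 with only the 4 libraries compared and 7 to 105 without 1 library. The erythroid list had 6 genes tested and the fetal globin list 26. Over all genes tested the calls also moved, from 1623 in CPM to 4617 under the block, 933 with the GC trend removed and 494 with the 4 libraries. The list counts are therefore not read as a result about the lists. Among the 62 called genes picked by the naming rule, direction was kept in each of the 12 alternatives that tested them. The genes were picked as called in these same libraries, so the kept direction is no separate support for them. Calls were lost for 12 of 62 with the GC trend removed, 18 of 61 with only the 4 libraries compared, 6 of 62 with a pseudocount of 1, 3 of 58 without DREAM replicate 1, 21 of 58 without DREAM replicate 2, 27 of 56 without SAM replicate 1 and 48 of 56 without SAM replicate 2, and for 0 to 2 under the others. Genes that were not called changed sign. Under median-of-ratios scaling the values were *PHGDH* 0.0696, *ATF4* 0.0893, *MT-CO1* 0.0468, *PSMB1* 0.0317, *LAMC1* 0.0464, *NID1* 0.0652 and *NEFL* 0.0645. With the GC trend removed they were *TFRC* 0.0461, *PHGDH* 0.0358, *ATF4* 0.0168, *MT-CO1* 0.0743, *MT-RNR2* 0.00090, *PSMB1* 0.108, *LAMC1* 0.0472, *NID1* 0.0396 and *NEFL* 0.0859. Without 1 library the ranges were -0.00518 to 0.104 for *RELA*, -0.292 to 0.0202 for *TFRC*, -0.103 to 0.174 for *FTH1*, -0.0761 to 0.00023 for *PHGDH*, -0.0389 to 0.00231 for *ATF4*, -0.348 to 0.227 for *MT-CO1*, -0.383 to 0.047 for *MT-RNR2*, -0.327 to 0.824 for *RN7SL1*, -0.283 to 0.611 for *RN7SL2*, -0.191 to 0.0692 for *LAMC1*, -0.211 to 0.127 for *NID1* and -0.156 to 0.0725 for *NEFL*. The cause of these shifts was not tested. Genes below 3 CPM are limited by depth and by 2 libraries a group.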
